A study of Mus musculus with 24 samples.

Results

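The proteasome genes of the mouse cerebellum were compared between 79 and 7 weeks of age. The family was taken by symbol as the subunits of the core particle (Psma and Psmb), the subunits of the regulatory cap (Psmc and Psmd), the activators (Psme), the inhibitor Psmf1 and the assembly chaperones (Psmg), without the inducible subunits Psmb8 to Psmb10 and without pseudogenes. It holds 44 of the 37991 genes in the count tables. Whole cerebellum had been taken from males of the inbred strain C57BL/6J at 79 weeks (2 libraries) and at 7 weeks (2 libraries), and neither age carries a named mutation or treatment. RNA had been extracted with Trizol and sequenced with a commercial mRNA library kit. The series holds 24 samples, and its 20 methylation and hydroxymethylation samples were not analysed here.

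The proteasome is the barrel-shaped protease that degrades most short-lived and damaged proteins of the cytosol and nucleus once they carry ubiquitin chains. Stacked alpha and beta rings form the core, in which the beta subunits cut the protein, and the cap recognises ubiquitin, removes it and threads the unfolded substrate through the alpha-ring gate. Other activators can dock in place of the cap, and dedicated chaperones build both parts. In neurons the proteasome turns over synaptic proteins, and its subunits are made in matched amounts, so that their genes are commonly controlled together.

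Not one proteasome gene passed the test between ages. Of the 44 members 43 passed the low-count filter, and 0 of these 43 were higher, 0 were lower and 43 were not called at an adjusted p of 0.05 (edgeR's quasi-likelihood test, Benjamini-Hochberg adjustment over all 15292 genes tested). The same test called 1352 genes, 8.84% of those tested, with 637 higher (4.17%) and 715 lower (4.68%) at 79 weeks. Where the mean level reached 10 CPM (read counts scaled to library size by TMM), as it did for 40 of the members, it called 11.4% of genes. At an unadjusted p under 0.05 there were 4 members, Psme4, Psmd8, Psme1 and Psmb6, against 26.7% of all genes tested. DESeq2 and limma-voom called 0 members as well, while calling 1290 and 1213 of the 15292 genes. The count over all genes depended on single libraries, being 1579 or 2425 with the first or second 79-week library left out and 0 or 175 with the first or second 7-week library left out. In bulk tissue fewer cells of a type and less RNA per cell cannot be told apart, and nothing in the labels ties each library to its own mouse, so the p-values measure a spread between libraries that may be technical.

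The differences were small. The median log2 fold change of the 43 tested members was -0.0023, beside 0.0099 over all genes tested, and 40 of them lay within 0.2 log2 units of no change. The interquartile range of the members ran from -0.07 to 0.07 and that of all genes tested from -0.14 to 0.20. Most members were abundant, 40 of them averaging 10 CPM or more. The 10185 tested genes at that level had a narrower range, from -0.14 to 0.10, and a median of -0.022. The part of expression level in the narrow range of the members was not tested. The 95% interval of the fold change lay inside 1.3-fold in either direction for 36 of the 43 and inside 1.5-fold for 41, the exceptions to the wider bound being Psme1 and Psmg4. These bounds are not limits of detection. Outside the family, the same test called Ubqln1 lower at 0.864-fold (95% interval 0.80 to 0.93, adjusted p = 0.0372 by edgeR). The smallest difference detectable with 2 libraries per age was not tested.

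**Figure D1:**
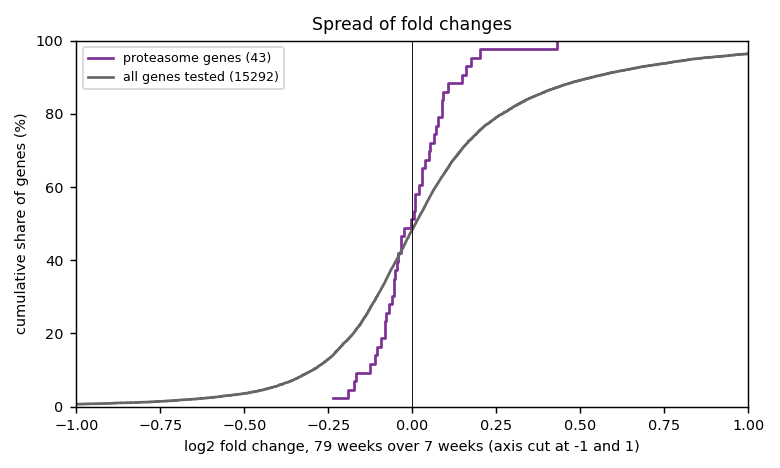
Cumulative share of genes (percent, vertical axis) against the log2 fold change of 79 over 7 weeks (horizontal axis, shown from -1 to 1), for the 43 tested proteasome genes and all 15292 genes tested. The proteasome curve is steeper, with its interquartile range between -0.07 and 0.07 against -0.14 and 0.20 for all genes. For the 10185 tested genes averaging 10 CPM or more, the range was -0.14 to 0.10.

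The 4 members below an unadjusted p of 0.05 are shown by their promoters, so that the letters of known regulatory motifs stand beside their values. The sequences are RefSeq promoters of build GRCm38.p6, from 250 bases before to 50 bases after the annotated start, printed 5′ to 3′ on the gene's strand. Capitals mark matches, on either strand, to 7 short motifs: TGACNNNGC (core of the antioxidant response element, bound by Nfe2l1 and Nfe2l2), a pair of GAAA with any 2 bases between (interferon-stimulated response element), TTCNNNGAA (gamma-activated sequence), GAA, TTC and GAA with any 2 bases between each (heat shock element), CCGGAAG (ETS factors), CCAAT and GCCATNTTG (YY1). Matches of different motifs were counted separately, also where they overlapped.
Psme4, chr11:30771525-30771824, plus strand: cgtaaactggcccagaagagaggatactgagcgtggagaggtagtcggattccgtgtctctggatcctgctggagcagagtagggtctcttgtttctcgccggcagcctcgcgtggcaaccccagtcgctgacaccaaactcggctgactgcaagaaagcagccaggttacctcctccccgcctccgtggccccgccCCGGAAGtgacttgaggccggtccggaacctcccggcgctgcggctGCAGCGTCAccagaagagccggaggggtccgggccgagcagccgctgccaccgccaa
Psme1, chr14:55578244-55578543, plus strand: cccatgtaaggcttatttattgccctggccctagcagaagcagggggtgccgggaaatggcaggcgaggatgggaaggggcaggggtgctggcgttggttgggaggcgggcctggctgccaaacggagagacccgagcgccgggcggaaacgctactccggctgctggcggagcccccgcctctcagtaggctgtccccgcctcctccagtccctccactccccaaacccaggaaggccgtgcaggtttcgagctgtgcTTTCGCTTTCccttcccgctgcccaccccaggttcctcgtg
Psmb6, chr11:70525107-70525406, plus strand: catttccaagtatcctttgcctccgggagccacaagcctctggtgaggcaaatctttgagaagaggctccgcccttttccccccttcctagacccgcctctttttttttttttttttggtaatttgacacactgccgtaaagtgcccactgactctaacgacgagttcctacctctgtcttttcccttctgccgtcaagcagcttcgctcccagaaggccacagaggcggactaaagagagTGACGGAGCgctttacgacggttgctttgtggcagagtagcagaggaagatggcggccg
Psmd8, chr7:29180624-29180923, minus strand: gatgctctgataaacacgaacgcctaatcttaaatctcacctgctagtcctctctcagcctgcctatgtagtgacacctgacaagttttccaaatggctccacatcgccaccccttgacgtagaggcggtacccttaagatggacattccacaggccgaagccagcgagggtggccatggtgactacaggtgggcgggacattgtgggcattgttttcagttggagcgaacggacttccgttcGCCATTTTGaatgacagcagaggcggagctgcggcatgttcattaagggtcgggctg

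Across the family, promoters of 36 members were found in the RefSeq table, which holds 27025 genes with a promoter; Psma8, Psmb1, Psmb2, Psmb7, Psmc3, Psmd3, Psmd7 and Psmg2 had no entry. The ETS core stood in 14 of the 36 (38.9%), among them Psme4, against 9.93% of all genes with a promoter. The antioxidant core stood in 6 (16.7%, against 14% of all), namely Psmb5, Psmb6, Psmc6, Psmd9, Psmd12 and Psme4. The interferon core stood in 5 (13.9%, against 3.99% of all), Psmb3, Psmd4, Psmd9, Psme1 and Psmg4. The heat shock core was matched in 0 of the 36 and in 0.662% of all, while CCAAT stood in 12 (33.3%, against 41.1% of all). The gamma-activated core stood in 2, Psmd2 and Psmg1 (5.56%, against 9.55% of all), and the YY1 core in Psmd8 alone (2.78%, against 2.9% of all). In the Psme4 promoter the ETS core began 53 bases before the start and the antioxidant core, on the opposite strand, 7 bases before it. A match describes letters in this window and says nothing of binding.

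Reads assigned to genes numbered 18901921 and 22826993 in the older libraries, against 16367656 and 21124608 in the younger, and a count of 0 (limit set at 3 counts per library, counting error only) allowed up to 0.187 CPM in the shallowest library. The first 79-week library stood apart by genes of the choroid plexus, a tissue that adjoins the cerebellum. The 12 markers of that tissue summed to 6806 and 170.1 CPM in the 79-week libraries, against 159.8 and 175.7 CPM in the 7-week libraries. Folr1 was at 0 counts in both 7-week libraries, and Kcne2 and Sostdc1 in 1 library each outside it. Markers of the tissue itself were present, with the 10 granule neuron genes at 6655 and 6319 CPM at 79 weeks and 8049 and 7834 CPM at 7 weeks, and the 10 Purkinje cell genes at 8976 and 9231 CPM against 10980 and 10930 CPM. Of these lists 6 granule and 5 Purkinje genes were called lower and 0 higher. Of 10 microglial markers 7 were called higher and 0 lower, summing to 231 and 288 CPM at 79 weeks and 133 and 147 CPM at 7 weeks. The 10 myelin genes summed to 3809 and 5365 CPM against 6347 and 5967 CPM, with 5 lower and 0 higher. The 10 genes of Bergmann glia and astrocytes went both ways, with 2 called higher and 1 lower, and summed to 3775 and 4056 CPM against 4077 and 4401 CPM. The part of these cell types in the proteasome values was not tested.

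**Figure D2:**
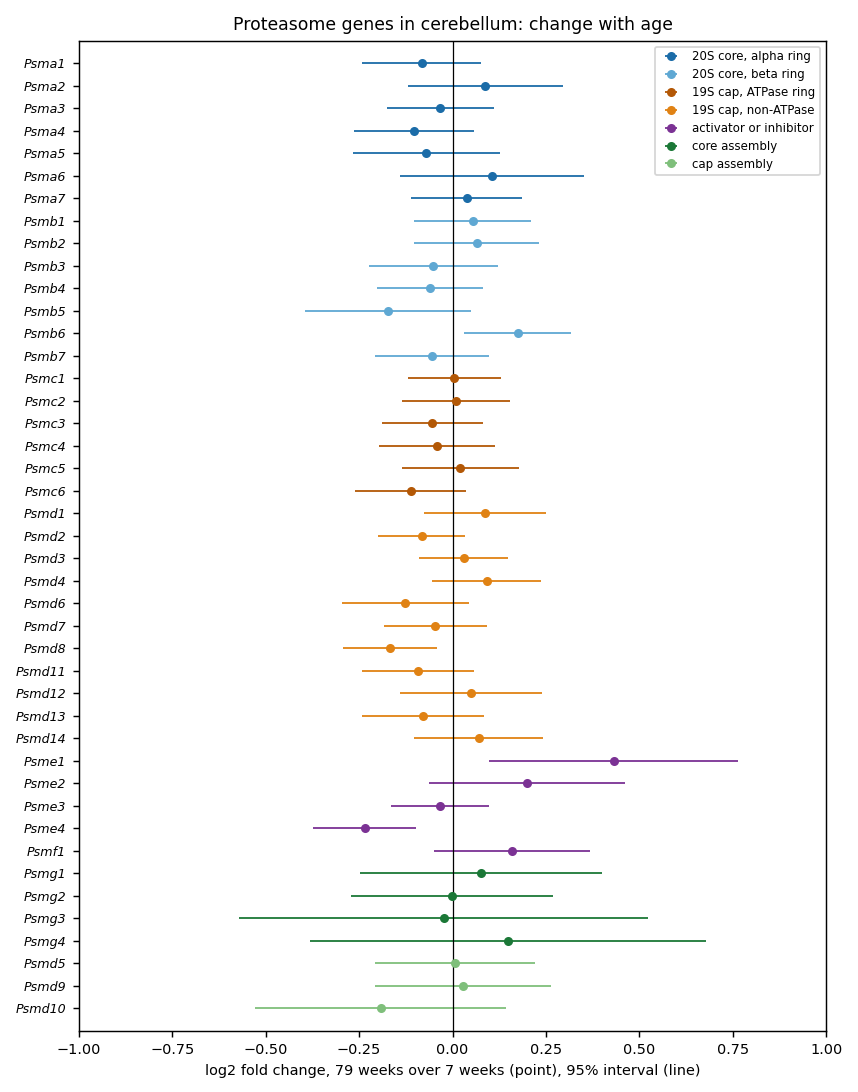
Log2 fold change of 79 over 7 weeks (points, horizontal axis) with its 95% interval (lines) for each of the 43 tested members, coloured by role. The intervals of 39 members include 0, and those of Psmb6, Psmd8, Psme1 and Psme4 do not, before adjustment for the number of genes tested. Over all 15292 genes tested, 11208 intervals include 0.

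The alpha ring forms the gate of the core. Its 8 genes summed to 394.5 and 398 CPM in the 79-week libraries, against 383.4 and 413.9 CPM in the 7-week libraries, so that the 7-week libraries enclosed the 79-week ones. Of 7 tested genes, 0 were called in either direction. The median log2 fold change was -0.03 and single values ran from -0.10 for Psma4 to 0.11 for Psma6. Psma4 stood at 57.97 and 58.02 CPM at 79 weeks, against 60.2 and 64.4 CPM at 7 weeks (log2 fold change -0.10, SE 0.07, adjusted p = 0.384 by edgeR). Both older libraries were below both younger ones. Psma6 stood at 42.0 and 43.8 CPM at 79 weeks, against 35.7 and 43.8 CPM at 7 weeks (log2 fold change 0.11, SE 0.11, adjusted p = 0.571 by edgeR). Its ages overlapped, and the first 7-week library was the low one, as it was for Psma2 (58.8 and 60.4 CPM at 79 weeks, against 51.4 and 60.6 CPM at 7 weeks). Without 7-week replicate 1 the log2 fold changes of Psma6 and Psma2 were -0.03 and -0.03.

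Psma8, a paralog of Psma7 known for its place in the testis proteasome, was the member left out by the filter. It had 7 and 3 counts in the 79-week libraries and 3 and 4 counts in the 7-week libraries, or 0.362 and 0.13 CPM against 0.187 and 0.193 CPM. Psma7, the general subunit, stood at 75.2 and 74.7 CPM against 70.7 and 75.3 CPM (adjusted p = 0.751 by edgeR). In 3 of the 4 libraries Psma8 was at or within 1 count of the limit of 3 counts, so no difference could be measured at this depth.

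The beta ring carries the cutting sites, in Psmb6 (after acidic residues), Psmb7 (after basic residues) and Psmb5 (after hydrophobic residues). The 7 beta genes summed to 388.2 and 392.5 CPM at 79 weeks and 379.4 and 393.5 CPM at 7 weeks, with a median log2 fold change of -0.05 and 0 of 7 called. The values of the catalytic genes lay on both sides of no change. Psmb6 (ENSMUSG00000018286) stood at 75.3 and 77.1 CPM at 79 weeks, against 66.3 and 68.9 CPM at 7 weeks (1.13-fold, 95% interval 1.02 to 1.25, adjusted p = 0.123 by edgeR). Both older libraries were above both younger ones. Psmb5 (ENSMUSG00000022193) stood at 19.3 and 19.9 CPM against 23.1 and 21.2 CPM, a 0.887-fold level with an interval from 0.761 to 1.04 (adjusted p = 0.294 by edgeR), and its older libraries were the lower ones. Psmb7 stood at 58.6 and 59.6 CPM against 60.2 and 62.6 CPM (0.963-fold, 95% interval 0.866 to 1.07). The difference between the changes of Psmb6 and Psmb5 was not tested. The structural subunits Psmb1, Psmb2, Psmb3 and Psmb4 had log2 fold changes between -0.06 (Psmb4) and 0.06 (Psmb2).

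Copies of these genes bear on the counts only where reads fit more than 1 place, since such reads were not counted. The pseudogenes Psmb5-ps, Psmb6-ps and Psmb7-ps2 had 0 counts in all 4 libraries apart from 1 count of Psmb7-ps2 in the first 79-week library. Psme2b, a near copy of Psme2, stood at 1.81 and 1.86 CPM against 1.68 and 1.74 CPM, so the level of Psme2 is uncertain where its reads match both.

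**Figure D3:**
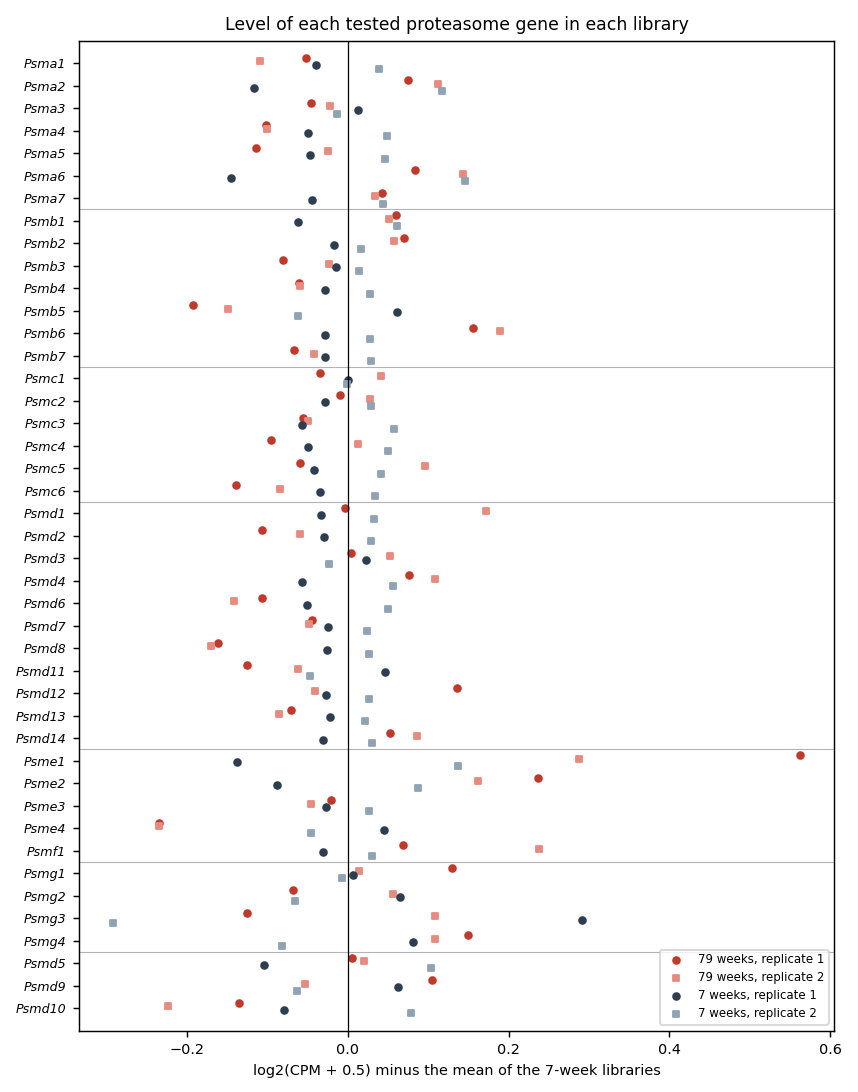
Level of each tested member in each library, as log2(CPM + 0.5) minus the mean of the 7-week libraries (horizontal axis), with 79-week libraries in red shades and 7-week libraries in blue-grey, and lines between roles. The ages overlap for 18 of the 43 genes and do not for the others (58.1%, against 57.7% of all genes tested). Psme1 stands to the right and Psme4 to the left at 79 weeks.

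The cap opens with a ring of 6 ATPases, Psmc1 to Psmc6, which unfold the substrate. Their fold changes spanned the narrowest range of all roles. The log2 fold changes ran from -0.11 for Psmc6 to 0.02 for Psmc5 with a median of -0.02, 0 of 6 were called, and all 6 intervals lay inside 1.3-fold. Psmc6 stood at 68.3 and 71.0 CPM at 79 weeks, against 73.5 and 77.1 CPM at 7 weeks (0.926-fold, 95% interval 0.835 to 1.03, adjusted p = 0.311 by edgeR), and was the ATPase gene whose ages did not overlap. Psmc5 stood at 112.0 and 124.7 CPM against 113.3 and 120.0 CPM, the older libraries enclosing the younger (adjusted p = 0.874 by edgeR). Psmc1 had 114 and 120.1 CPM against 116.8 and 116.7 CPM. The summed ATPase level was 560.1 and 590.7 CPM at 79 weeks and 571.1 and 599.6 CPM at 7 weeks.

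The other 11 cap subunits include the scaffolds Psmd1 and Psmd2, the ubiquitin receptor Psmd4, the deubiquitinase Psmd14 and structural subunits of the lid. None was called (0 higher, 0 lower, 11 not called), their median log2 fold change was -0.05 and all 11 intervals lay inside 1.3-fold. Psmd8 (ENSMUSG00000030591), a lid subunit, was the lowest of them. It stood at 94.7 and 94.2 CPM at 79 weeks, against 104.1 and 108.0 CPM at 7 weeks (0.891-fold, 95% interval 0.816 to 0.973, adjusted p = 0.0992 by edgeR). Its older libraries agreed closely and lay below both younger ones, and its log2 fold change stayed between -0.20 and -0.14 with any 1 library left out. Psmd4 was at the other end, at 93.1 and 95.3 CPM against 84.9 and 91.9 CPM (log2 fold change 0.09, SE 0.06, adjusted p = 0.393 by edgeR).

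The scaffolds pointed to opposite sides of no change. Psmd2 stood at 189.0 and 195.2 CPM at 79 weeks and 199.3 and 207.5 CPM at 7 weeks (log2 fold change -0.08), and Psmd1 at 108.8 and 122.9 CPM against 106.5 and 111.6 CPM (log2 fold change 0.09, and -0.0092 without 79-week replicate 2). The deubiquitinase gene Psmd14 stood at 43.7 and 44.7 CPM against 41.2 and 43.0 CPM, and its partner Psmd7 at 77.0 and 76.8 CPM against 78.1 and 80.7 CPM. Neither gene's ages overlapped, Psmd14 being higher and Psmd7 lower at 79 weeks, and neither was called (adjusted p = 0.590 and 0.661 by edgeR). Over core and cap together, 14 of 31 tested subunits had a positive and 17 a negative fold change.

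**Figure D4:**
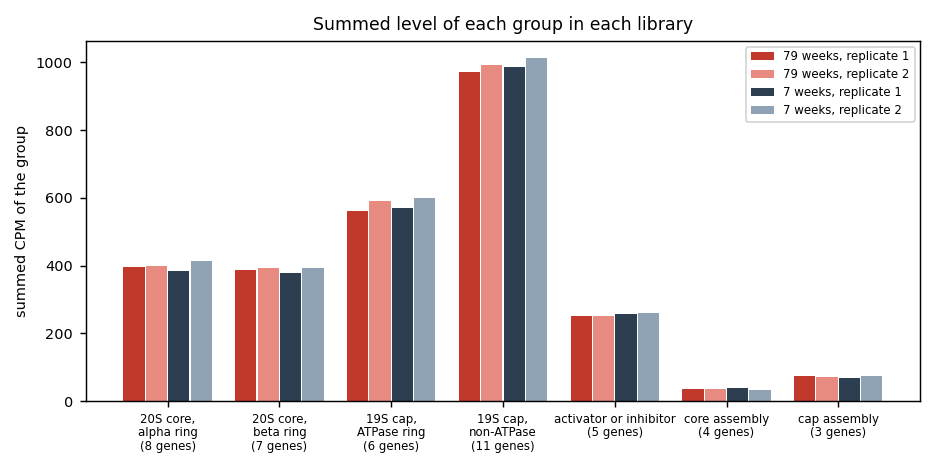
Summed CPM (vertical axis, from 0) of each role in the 79-week libraries (red shades) and the 7-week libraries (blue-grey). Heights between roles reflect numbers of genes and transcript lengths and are not compared, while within a role the ratio of the age means ran from 0.975 (activators and inhibitor) to 1.02 (core assembly).

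Proteasome activators and the inhibitor were the group with the widest spread, as log2 fold changes ran from -0.24 for Psme4 to 0.43 for Psme1 and the median of the 5 was 0.16. None passed the adjusted test (0 of 5). Their summed level nonetheless stood at 251.5 and 249.8 CPM at 79 weeks and 255.5 and 258.6 CPM at 7 weeks, the abundant members weighing most.

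Psme4 (ENSMUSG00000040850) encodes the large single-chain activator PA200, known for the degradation of acetylated histones in germ cells and after DNA damage. It stood at 85.8 and 85.8 CPM at 79 weeks, against 104.4 and 97.9 CPM at 7 weeks. The older libraries were alike and both lay below the younger. The level was 0.850-fold (95% interval 0.772 to 0.934, log2 fold change -0.24, SE 0.06), and the adjusted p of 0.0508 from edgeR missed the threshold narrowly. Psme4 passed it with RLE scaling (0.0498), with a filter of at least 1 CPM in 2 libraries (0.0488), with robust dispersion estimates (0.0347) and with no low-count filter (0.00665). It did not pass with upper-quartile or library-size scaling, with the replicate number as a block, with DESeq2 or with limma-voom. Nor did it pass with any library left out, where its log2 fold change ran from -0.28 to -0.19.

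Psme1 (ENSMUSG00000022216) and Psme2 (ENSMUSG00000079197) encode the alpha and beta chains of the ring-shaped activator PA28, which interferon gamma induces and which favours peptides for antigen presentation. In the RefSeq annotation they are near neighbours, with Emc9 between them. Psme1 stood at 20.6 and 17.0 CPM at 79 weeks, against 12.5 and 15.2 CPM at 7 weeks (1.35-fold, 95% interval 1.07 to 1.70, adjusted p = 0.104 by edgeR). Psme2 stood at 17.4 and 16.5 CPM against 13.8 and 15.7 CPM (1.15-fold, 95% interval 0.958 to 1.38, adjusted p = 0.303 by edgeR). Both genes had older libraries above the younger, with the first 79-week library highest and the first 7-week library lowest.

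Leaving out either end library gave a smaller Psme1 value. Its log2 fold change was 0.43 with all libraries, 0.28 without 79-week replicate 1 (where the choroid plexus markers were high) and 0.30 without the first 7-week library. It was 0.58 without 7-week replicate 2, and 0.56 with a call (adjusted p = 0.0092) when 79-week replicate 2 was left out. The log2 fold change of Psme2 was 0.20 with all libraries, 0.11 without 7-week replicate 1 and 0.29 without 7-week replicate 2. Psme1 was also called with no low-count filter (adjusted p = 0.0139). The summed level of 10 interferon-stimulated genes was 209.9 and 127.4 CPM at 79 weeks and 62.7 and 86.2 CPM at 7 weeks, with 5 of the 10 called higher, 0 lower and none at 0 counts. This sum ordered the 4 libraries as Psme1 did, while Isg15 did not, at 1.71 and 0.907 CPM at 79 weeks and 0.747 and 1.45 CPM at 7 weeks. The microglial sums given above were higher at 79 weeks in both libraries, the second more so. The part of either in the Psme1 value was not tested.

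The remaining activator and the inhibitor did not pass either. Psme3, the nuclear relative of PA28, stood at 92.1 and 90.5 CPM at 79 weeks and 91.7 and 95.2 CPM at 7 weeks (adjusted p = 0.752 by edgeR). Psmf1, which encodes PI31, a protein that binds the core and inhibits it in vitro, stood at 35.5 and 39.9 CPM against 33.1 and 34.5 CPM (1.12-fold, 95% interval 0.966 to 1.29, adjusted p = 0.303 by edgeR). The older libraries of Psmf1 were above both younger ones, and its log2 fold change was 0.16 with all libraries, 0.24 without 79-week replicate 1 and 0.064 without 79-week replicate 2.

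**Figure D5:**
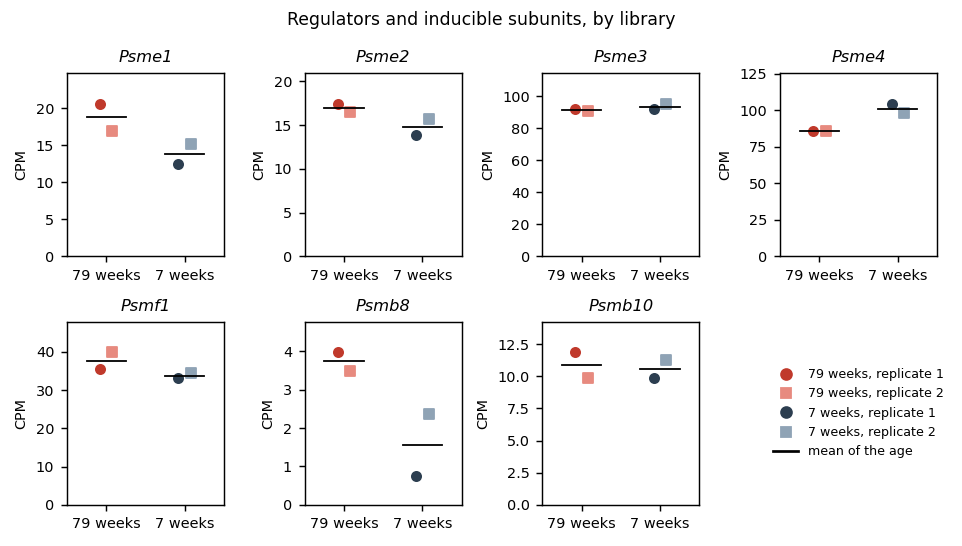
CPM (vertical axes, from 0) of the activators Psme1 to Psme4, the inhibitor Psmf1 and the inducible subunits Psmb8 and Psmb10 in each library, at 79 weeks (left) and 7 weeks (right), with the mean of each age as a line. Psme4 lies at 85.8 CPM in both 79-week libraries, below 97.9 and 104.4 CPM at 7 weeks, while Psme1 and Psmb8 are lowest in the first 7-week library.

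Assembly factors of the core (Psmg1 to Psmg4) pair with each other to order the alpha ring, and those of the cap (Psmd5, Psmd9 and Psmd10) hold the ATPases until the ring closes. Of these 7 genes 0 were called. The median log2 fold change was 0.04 for the core factors and 0.0073 for the cap factors. Psmg4 had the highest value, at 3.88 and 3.76 CPM in 79-week libraries, against 3.67 and 3.23 CPM in 7-week libraries (log2 fold change 0.15, SE 0.23, adjusted p = 0.724 by edgeR). Psmg3 had the lowest core value (log2 fold change -0.02, SE 0.23, adjusted p = 0.961 by edgeR), although its 7-week libraries differed most of all members on a log scale, at 9.28 and 6.03 CPM, and enclosed the 79-week libraries at 6.83 and 8.12 CPM.

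Counts limit what can be said of the assembly genes. Psmg4 rested on 75 and 87 counts at 79 weeks and 59 and 67 counts at 7 weeks, and its fold interval ran from 0.768 to 1.60. Among cap factors Psmd10, which encodes gankyrin, was lowest at 9.62 and 9.02 CPM against 10.02 and 11.2 CPM (0.876-fold, 95% interval 0.694 to 1.11, adjusted p = 0.442 by edgeR), with the older libraries below the younger. Psmd9 was highest of the cap factors at 25.3 and 22.7 CPM against 24.6 and 22.5 CPM (adjusted p = 0.888 by edgeR). The more abundant Psmd5 stood at 37.5 and 37.9 CPM against 34.7 and 40.2 CPM, its younger libraries enclosing the older.

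Differences between libraries of 1 age can be set beside those between ages. The median absolute difference between replicates was 0.044 log2 units at 79 weeks and 0.083 at 7 weeks, beside 0.070 between the age means. In 26 of the 43 genes (60.5%) the larger of the 2 replicate differences exceeded the difference between age means. The share was 55.3% of all genes tested and 51.2% of those with a mean of at least 10 CPM. Such a count favours the replicates because it sets single libraries against means. The ages did not overlap for 25 of the 43 tested members (58.1%), against 57.7% of all genes tested. Without overlap, 9 of the 43 members were higher at 79 weeks, against 4431 of the 15292 genes tested (29.0%). Another 16 of the 43 were lower, against 4398 of the 15292 (28.8%). The mean level reached 10 CPM for 40 members. Of the 10185 genes at that level, 2633 were higher without overlap and 3630 lower (61.5% together), so that lower genes outnumbered higher ones there too. The tested members below that level were Psmg4 (higher without overlap), Psmd10 (lower without overlap) and Psmg3 (overlapping). The second 7-week library was the highest of the 4 for 22 members (51.2%), against 21.8% of all genes tested. The summed level of all 44 members was 2673 and 2730 CPM at 79 weeks and 2684 and 2786 CPM at 7 weeks, a ratio of age means of 0.988.

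Inducible subunits replace the catalytic ones in the immunoproteasome of immune and interferon-treated cells. Psmb8, the counterpart of Psmb5, stood at 3.98 and 3.50 CPM at 79 weeks, against 0.747 and 2.36 CPM at 7 weeks (2.34-fold, 95% interval 1.12 to 4.86, adjusted p = 0.135 by edgeR). Older libraries were above younger ones, and the first 7-week library was far below the second. The log2 fold change of Psmb8 was 1.22 with all libraries, 0.66 without the first and 2.31 without the second 7-week library, and Psmb8 was called without 79-week replicate 2 (adjusted p = 0.0383) and with no low-count filter (adjusted p = 0.0019). Psmb10, the counterpart of Psmb7, stood at 11.9 and 9.89 CPM against 9.84 and 11.2 CPM, with ages that overlapped (adjusted p = 0.888 by edgeR). Psmb9 could not be matched by its symbol to an identifier of the counts, so it has no value here. The sums of microglial and interferon-stimulated genes given above were, like Psmb8, higher at 79 weeks. The interferon sum ordered the libraries as Psmb8 did, while the microglial sum was highest in the second 79-week library. The part of either in the Psmb8 value was not tested.

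Most further genes of the pathway were not called, as was so of most genes in the count tables. The test called 8.84% of all genes tested and 11.4% of those with a mean of at least 10 CPM. Of 17 tested genes that bind, mature or control the proteasome, 1 was higher, 0 were lower and 16 were not called. Their median log2 fold change was 0.0053. Paaf1, on the same list, could not be matched to an identifier and has no value. The gene called was Nfe2l2, a transcription factor of the oxidative stress response, at 24.3 and 33.0 CPM at 79 weeks, against 16.0 and 19.8 CPM at 7 weeks (log2 fold change 0.68, SE 0.16, adjusted p = 0.0471 by edgeR). It was not called with limma-voom (adjusted p = 0.0641), with robust dispersion estimates (0.0554), or with the first (0.293) or the second (0.12) 7-week library left out. Nfe2l1, the related factor that raises proteasome genes when the proteasome is inhibited, stood at 239.1 and 233.5 CPM against 240.3 and 246.8 CPM (adjusted p = 0.608 by edgeR). Pomp, the maturation factor of the core, stood at 41.8 and 48.2 CPM against 42.9 and 46.9 CPM (adjusted p = 0.976 by edgeR). The 6 members with an antioxidant core in the promoter had log2 fold changes of -0.24 (Psme4), -0.17 (Psmb5), -0.11 (Psmc6), 0.03 (Psmd9), 0.05 (Psmd12) and 0.17 (Psmb6). The part of Nfe2l2 or Nfe2l1 in these values was not tested, and a match of letters does not mark a target.

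Upstream of the proteasome lay 16 genes of ubiquitin, its activating enzymes, shuttle proteins and the unfoldase Vcp. Of these 0 were called higher, 1 was called lower and 15 were not called, while 8.84% of all genes tested were called. Their median log2 fold change was -0.02. Ubqln1, a shuttle that carries ubiquitinated proteins to the proteasome, was the gene called, at 194.5 and 199.5 CPM at 79 weeks, against 230.4 and 226.2 CPM at 7 weeks (log2 fold change -0.21, SE 0.05, adjusted p = 0.0372 by edgeR). That call was lost with library-size scaling (adjusted p = 0.0776), when 79-week replicate 1 (0.125), 7-week replicate 1 (0.208) or 7-week replicate 2 (0.124) was left out, and in a fit with the replicate number as a block (0.0553). With library-size scaling 1 gene of the list was called all the same, so it was a gene other than Ubqln1. Vcp itself stood at 317.3 and 313.5 CPM against 300.3 and 305.9 CPM (adjusted p = 0.502 by edgeR).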

How the data were processed

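Per the submitters' processing notes, reads were trimmed with cutadapt, aligned with STAR to mm9 and counted per Ensembl gene with HTSeq, with no versions given. The deposited values are raw read counts, 1 file per library, with no pooling. Neither the annotation release nor the strand setting is given in the sources used here, so reads of overlapping or antisense genes cannot be told apart. Reads aligned to more than 1 place, 8.02% to 8.25% of each library, were not assigned to genes, and the summary lines that hold them were removed before totals were taken.

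The members were found by symbol through a table of gene names, and all 44 symbols matched an identifier. Members, lists and tests were chosen with earlier results of these data known. Low counts were removed with filterByExpr of edgeR 4.0.16, run in R 4.3.3 (minimum count 10, minimum total 15), and libraries were scaled by TMM (factors 0.981 to 1.02). The comparison of 79 minus 7 weeks used edgeR's quasi-likelihood F test, with no covariates, Benjamini-Hochberg adjustment over 15292 genes and a threshold of 0.05. Intervals are 95% intervals from the fit's standard error and moderated degrees of freedom. Levels per library use a pseudocount of 0.5 CPM where logged. The procedure was tested on simulated data.

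Genes described with full statistics were to be called members, the extremes of each group, Psma8, the catalytic subunits, Psme1 and Psme2, and, outside the family, Psmb8, Psmb9, Psmb10, Pomp, Nfe2l1 and called genes. Alternatives tried were scaling by RLE, by upper quartiles or by library size alone, 2 other low-count filters, DESeq2 1.42.0, limma-voom (limma 3.58.1), robust dispersion estimates, a replicate block and each library left out. A crossed block and DESeq2 without each library were added after the data were seen. The 20 genomic samples were not analysed here.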

Additional observations from a re-analysis of the deposited data

How the results depend on the processing

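Genes called over the whole table numbered 1352, and 3051 with no low-count filter. With each library left out edgeR called 0 to 2425, namely 1579 and 2425 when the first or second 79-week library was dropped, and 0 (2610 at an unadjusted p under 0.05) and 175 when the first or second 7-week library was. In the same order DESeq2 called 379, 654, 235 and 421. Library-size scaling gave 901 higher and 484 lower calls (65.1% higher, against 47.1%). Members called were 0 with all libraries, 1 with RLE scaling, with the filter of 1 CPM in 2 libraries and with robust dispersion (Psme4 in each), 2 with no low-count filter (Psme1 and Psme4), and 0 to 1 with each library left out (Psme1 without 79-week replicate 2). Immunoproteasome calls were 1 with no low-count filter and 0 to 1 with a library left out. Calls among associated genes were 3 with no low-count filter, 0 with limma-voom and with robust dispersion, and 0 to 2 with a library left out. Calls among ubiquitin genes were 3 with no low-count filter, 2 with robust dispersion, 0 with the replicate block and 0 to 1 with a library left out.

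The replicate numbers share no stated origin, and deviations of same-numbered libraries correlated at -0.106 over genes. With the replicate number as a block 1396 genes and 0 members were called. With the numbers crossed, chosen after seeing the data, 2014 genes and 2 members were called.

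Role medians moved with library-size scaling to 0.021 (alpha ring), 0.0019 (beta ring), 0.0074 (other cap subunits) and 0.051 (all members). With a library left out they ran from 0.064 to 0.19 for activators, -0.010 to 0.16 for core assembly, -0.095 to -0.0069 for cap assembly and -0.050 to 0.012 for all members. Uncalled fold changes near 0 changed sign. With library-size scaling log2 fold changes were 6.5e-05 for Psmc3, 0.051 for Psmg2, 0.030 for Psmg3, 0.013 for Psmc4, 0.0074 for Psmd7, 0.021 for Psma3, 0.0019 for Psmb3, 0.021 for Psme3 and 0.011 for Nfe2l1, and Psmg2 was at 0.011 with upper-quartile scaling and 0.0075 with limma-voom, where Psmg3 was at 0.042. With a library left out log2 fold changes ran from -0.11 to 0.0032 for Psmc3, -0.0093 to 0.12 for Psmb1, -0.027 to 0.21 for Psma2, -0.065 to 0.096 for Psmc5, -0.041 to 0.13 for Psmd12, -0.035 to 0.26 for Psma6, -0.039 to 0.042 for Psmc1, -0.074 to 0.061 for Psmg2, -0.0092 to 0.17 for Psmd1, -0.095 to 0.12 for Psmd5, -0.0096 to 0.082 for Psma7, -0.023 to 0.036 for Psmc2, -0.052 to 0.10 for Psmd9, -0.31 to 0.31 for Psmg3, -0.10 to 0.012 for Psmc4, -0.096 to 0.17 for Psmb10 and -0.11 to 0.10 for Pomp. The cause was not tested. Depth limited Psma8, at 3 to 7 counts per library, and with an age left at 1 library, that library was assumed to vary like the others.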
